A study of Mus musculus with 28 samples.

Results

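A set of 8 transcription regulators that are set against each other in memory and effector lymphocytes was followed here: Bach2, Id3, Satb1, Foxo1 and Bcl6 on the memory side, and Prdm1, Zeb2 and Id2 on the effector side. These are 8 genes of 19938 measured. They were chosen by name with earlier results of these data known, 5 for the memory side and 3 for the effector side. Each is read by the probe set that carries its symbol alone (only 1 such probe set exists for each of the 8, so no choice between probe sets was needed). The cells were CD4+ T cells with a transgenic receptor for the melanocyte protein TRP1, from BwTRP1 Rag1-/- mice, cultured with peptide-pulsed irradiated C57/B6 splenocytes. Th17 cultures received IL-1, IL-6, IL-21 and TGFβ2 with antibodies to IL-2, IL-4 and IFN-γ, and later IL-23, whereas Th1 cultures received IL-12 with an antibody to IL-4, and IL-2 was added to both. At day 0 each type was read before transfer. At day 5 and day 15 spleen and inguinal lymph node cells of sublethally irradiated Thy1.1+ B6.PL mice were pooled, the transferred Thy1.2+ cells were sorted from them, and one portion of each sample was restimulated for 2 h through CD3 and CD28. There were 3 Th17 and 3 Th1 arrays at day 5, and 4 Th17 and 2 Th1 arrays at day 15, both restimulated and unstimulated, and 1 array for each of the 4 day 0 groups. Unpolarized cells are not analysed here, every group carries the same receptor and lacks Rag1, and each transferred group comes from an irradiated host. The labels do not say whether replicates are separate mice, pools or cultures, so p-values measure the spread between these samples only.

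As background, Bach2 and Foxo1 hold T cells in a quiescent, long-lived state, Satb1 organises chromatin in T cells, and Bcl6 is a repressor that acts in follicular helper and memory precursor cells. Prdm1 (Blimp-1) and Bcl6 repress each other, Zeb2 acts with T-bet in terminal effector differentiation, and Id2 and Id3 are related proteins that bind E proteins and keep them off DNA, Id3 being linked to memory precursors and Id2 to effectors. These opposing pairs were described largely in CD8+ T cells, B cells and follicular helper cells.

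All levels are log2 values after RMA normalisation, so 1 unit is a doubling, and a level is comparable between arrays for the same gene but not between genes. Array medians lay between 6.77 and 7.09, and arrays of a group correlated at 0.987 to 0.998. CD4 T cell markers (6 of 6 measured) averaged 12.17 to 12.45 on the arrays after transfer, and B cell markers (6 of 7) averaged 6.10 to 6.59. Myeloid and neutrophil markers (8 of 8) averaged 7.66 to 9.28 in unstimulated Th17 arrays at day 5, against 6.23 to 6.68 in Th1 arrays. In restimulated arrays of that day they averaged 6.93 to 8.66 in Th17, against 6.12 to 6.19 in Th1, with Th17 replicate 1 the highest both times. Erythroid markers (3 of 6) averaged 7.72 to 9.27 at day 15, against 6.28 to 6.53 at day 5. In restimulated day 15 arrays they averaged 9.005 and 8.58 in Th1, against 7.725 to 7.907 in Th17. Without restimulation the types overlapped, at 9.267 and 8.737 in Th1 and 7.995 to 8.95 in Th17. Dendritic cell markers (6 of 6) averaged 7.59 and 7.675 in unstimulated Th1 arrays at day 15, against 7.031 to 7.273 in Th17. With restimulation they averaged 7.547 and 7.546 in Th1, against 6.914 to 7.299 in Th17. At day 5 the types overlapped in both states. The part of dendritic cells in the differences was not tested. The sorted cells were read in bulk, and fewer cells of a type and less RNA per cell cannot be told apart in such bulk samples.

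The promoters of the 8 genes were read because several members moved together on restimulation. RefSeq (GRCm38.p6) windows from 250 bases before to 50 after the transcript start were found for all 8 members, taking the most upstream start of each gene. They were searched on both strands for a forkhead site (GTAAACA), a Stat site (TTCNNNGAA), an AP-1 site (TGANTCA), an E-box (CANNTG) and a Zeb box (CAGGTG, itself one form of E-box). Of 32851 such windows of mouse genes, 3.65% held the forkhead letters, 8.3% the Stat letters, 7.81% the AP-1 letters, 72.3% an E-box and 20.2% a Zeb box. Bach2 and Bcl6, which rose on restimulation, are shown with Prdm1, which was not called in that comparison, and capitals mark every match. Bach2 lies at chr4:32417185-32417484 on the plus strand, Bcl6 at chr16:23988803-23989102 on the minus strand and Prdm1 at chr10:44458699-44458998 on the minus strand, each written 5′ to 3′.
Bach2: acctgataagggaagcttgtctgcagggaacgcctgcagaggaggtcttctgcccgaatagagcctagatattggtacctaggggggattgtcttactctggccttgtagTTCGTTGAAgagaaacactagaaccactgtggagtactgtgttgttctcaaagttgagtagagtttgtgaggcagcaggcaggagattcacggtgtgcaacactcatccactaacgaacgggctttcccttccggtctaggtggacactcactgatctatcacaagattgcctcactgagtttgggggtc
Bcl6: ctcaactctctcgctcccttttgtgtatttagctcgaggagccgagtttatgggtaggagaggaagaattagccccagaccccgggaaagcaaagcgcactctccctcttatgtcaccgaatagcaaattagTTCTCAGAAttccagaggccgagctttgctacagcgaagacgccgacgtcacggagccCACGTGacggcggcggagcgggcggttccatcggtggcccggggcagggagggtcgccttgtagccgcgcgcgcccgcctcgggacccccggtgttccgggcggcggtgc
Prdm1: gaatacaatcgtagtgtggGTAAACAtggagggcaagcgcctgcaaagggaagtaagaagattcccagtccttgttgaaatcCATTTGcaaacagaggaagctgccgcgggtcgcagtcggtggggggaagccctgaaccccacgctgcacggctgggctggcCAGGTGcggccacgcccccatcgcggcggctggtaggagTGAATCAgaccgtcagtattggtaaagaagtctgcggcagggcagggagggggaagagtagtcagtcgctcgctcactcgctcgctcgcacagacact
The Stat letters occur in the windows of Bach2, as TTCGTTGAA, and of Bcl6, as TTCTCAGAA, where CACGTG is an E-box as well. The Prdm1 window holds the forkhead letters, the AP-1 letters as TGAATCA, an E-box as CATTTG, and CAGGTG, which counts as both E-box and Zeb box. Of the other windows, Satb1 holds CACCTG (E-box and Zeb box), Foxo1 CACTTG and Id2 CAGCTG, and those of Id3 and Zeb2 hold none of the 5 motifs. RefSeq gives further starts for Satb1, Bcl6 and Zeb2. There the Stat letters occur 3 times in the second Bcl6 window and once in each of 2 Zeb2 windows. These 2 windows overlap over most of their length, so both may hold the same site. The AP-1 letters occur 2 times in the last Zeb2 window. E-boxes occur 5 times in the third Satb1 window, with 1 Zeb box, and once in each of its last 2 windows, which overlap too. The Stat letters are therefore not limited to the genes shown. A match describes these letters only.

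The first comparison asked how the balance of the regulators differed between Th17 and Th1 cells. Zeb2 was lower and Satb1 higher in Th17 cells at both days with and without restimulation. Id3 was higher in 3 of the 4 comparisons, all but unstimulated cells at day 15, and Prdm1 was lower at day 15. Bach2 was higher in Th17 cells at day 5. Bcl6 and Id2 passed the test in none of the 4 comparisons. Differences are Th17 minus Th1 from limma fitted over all genes, and a call means a Benjamini-Hochberg adjusted p below 0.05. At day 5 without restimulation 5 of the 8 members were called, where 3.63% of all genes were: 4 of 5 memory-side genes were higher in Th17 (2.31% of all genes) and 1 of 3 effector-side genes lower (1.32%). With restimulation 4 of 8 were called (3.98% of all genes), 3 memory-side genes higher (2.95%) and 1 effector-side gene lower (1.02%). At day 15 without restimulation 3 of 8 were called (4.15%), 1 memory-side gene higher (1.88%) and 2 effector-side genes lower (2.28%). With restimulation 4 of 8 were called (6.43%), 2 memory-side genes higher (3.45%) and 2 effector-side genes lower (2.98%). The median difference of the 5 memory-side genes was 0.71 and 0.56 at day 5 and 0.54 and 0.21 at day 15 (unstimulated, then restimulated), and that of the 3 effector-side genes was -0.30, -0.39, -1.02 and -0.94 in the same order. Over all genes the median lay between -0.04 and 0.02. Because the members were chosen with earlier results of these data known, their counts beside all genes are a description and no test.

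**Figure D1:**
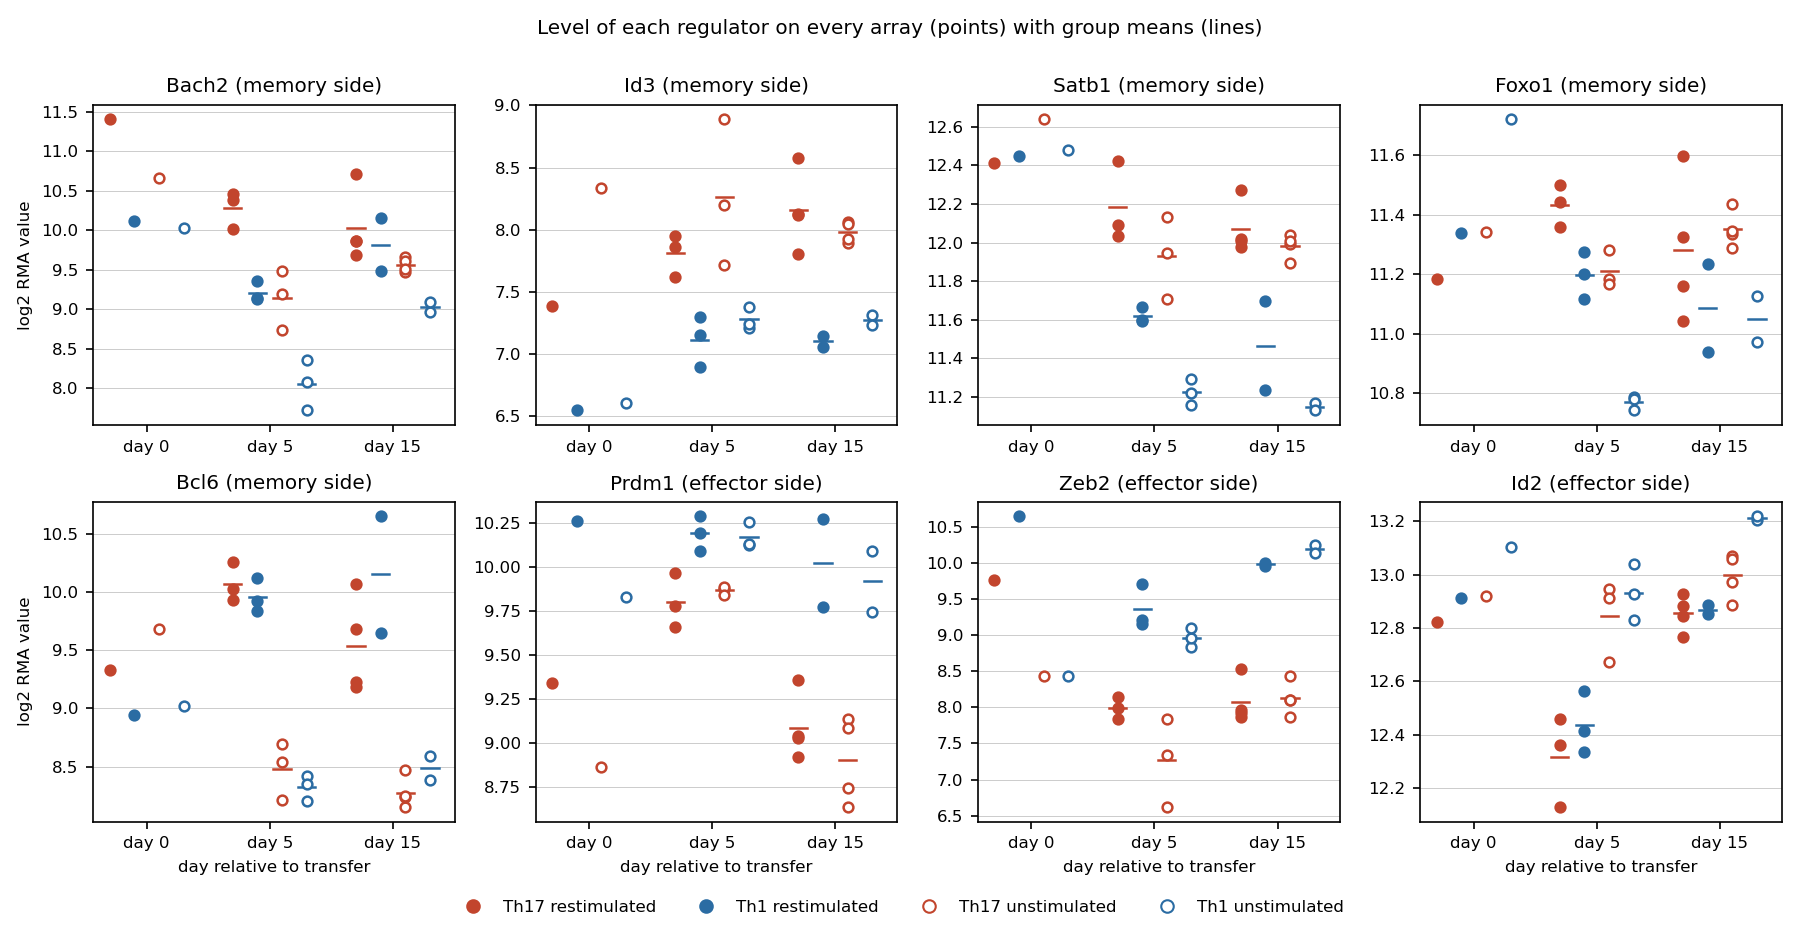
Log2 RMA level of each of the 8 regulators (y axis) on all 28 arrays at days 0, 5 and 15 (x axis), with each point an array and each line a group mean. Th17 (red) stands above Th1 (blue) on every array of the same day and state for Satb1 and Id3 after transfer and below it for Zeb2, while restimulated arrays (filled) stand above unstimulated arrays (open) for Bcl6 after transfer.

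Zeb2, a zinc-finger repressor that acts in terminal effector differentiation, showed the largest difference of the 8 in each of the 4 comparisons. Its level was 6.62, 7.84 and 7.34 in unstimulated Th17 arrays at day 5, against 8.84, 8.96 and 9.10 in Th1 arrays. With restimulation it was 7.84, 8.14 and 7.99 in Th17, against 9.21, 9.16 and 9.71 in Th1. The groups did not overlap, and Th17 replicate 1 of the unstimulated arrays was the lowest of all. At day 15 Zeb2 read 8.43, 8.09, 7.86 and 8.10 in unstimulated Th17 arrays, against 10.25 and 10.14 in Th1 arrays. Restimulated arrays of day 15 read 8.53, 7.86, 7.92 and 7.96 in Th17, against 9.96 and 10.00 in Th1. All Th1 groups thus ranked above all Th17 groups. At day 5 the difference was -1.70 (SE 0.22, adjusted p = 1.59e-05) without and -1.37 (adjusted p = 0.000258) with restimulation. At day 15 it was -2.07, a level 4.2-fold lower in Th17 (adjusted p = 2.73e-06), without and -1.91 (adjusted p = 8.51e-06) with restimulation. NK cell markers (5 of 6) were also lower in Th17 cells at day 15. They averaged 6.51 to 6.71 in unstimulated Th17 arrays, against 7.64 to 8.13 in Th1 arrays. Ncr1, one of these markers, read 5.68 to 6.01 in Th17 and 6.61 to 7.24 in Th1. These levels lie near or below 7.17, the median level of all genes. At day 5 the unstimulated marker means overlapped, at 6.61 to 7.35 in Th17 and 6.77 to 7.06 in Th1. Th17 replicate 1, the array with the lowest Zeb2, had the highest of them. The part of NK cells in the Zeb2 difference was not tested.

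Satb1, a chromatin organiser of T cells, was higher in Th17 cells in all 4 comparisons. It read 11.71, 11.95 and 12.13 in unstimulated Th17 arrays at day 5, against 11.16, 11.29 and 11.22 in Th1 arrays. After restimulation it read 12.03, 12.09 and 12.42 in Th17, against 11.60, 11.60 and 11.66 in Th1. Even the lowest Th17 array of that day lay above the highest Th1 array. At day 15 the unstimulated levels were 11.99, 12.04, 11.90 and 12.01 in Th17, against 11.17 and 11.13 in Th1, and the restimulated levels 12.27, 12.02, 12.01 and 11.98, against 11.70 and 11.23. The differences were 0.71 (adjusted p = 0.000607) and 0.56 (adjusted p = 0.00552) at day 5, unstimulated and restimulated, and 0.83 (adjusted p = 0.000199) and 0.60 (adjusted p = 0.00428) at day 15. Calls in restimulated cells rested partly on single arrays: without Th17 replicate 3 the day 5 difference was 0.44 (adjusted p = 0.0672), and without Th1 replicate 2 the day 15 difference was 0.37 (adjusted p = 0.116). Fitting only the 2 groups compared also ended the day 15 restimulated call (adjusted p = 0.098).

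Id3, an inhibitor of E proteins, had every Th17 group above every Th1 group. Unstimulated day 5 arrays read 8.89, 7.71 and 8.20 in Th17, against 7.21, 7.24 and 7.38 in Th1. Restimulated arrays read 7.86, 7.62 and 7.95 in Th17, against 6.90, 7.30 and 7.15 in Th1. Th17 replicate 1, the array with the lowest Zeb2, had the highest Id3. It also had the highest Foxp3 of the day 5 arrays, Foxp3 being the marker of regulatory T cells. Foxp3 read 10.06 to 11.05 in unstimulated Th17 arrays at day 5 against 9.60 to 9.77 in Th1 arrays, and 9.74 to 10.76 against 9.21 to 9.54 with restimulation. At day 15 Foxp3 was instead higher in Th1 arrays, at 9.92 and 11.17 against 9.585 to 9.83 in Th17 arrays without restimulation. With restimulation it read 10.06 and 10.90 in Th1, against 9.36 to 9.74 in Th17. The part of Foxp3-expressing cells in the differences of either day was not tested. Id3 at day 15 read 8.06, 8.05, 7.90 and 7.93 in unstimulated Th17 arrays, against 7.31 and 7.23 in Th1, and in restimulated arrays 7.80, 8.57, 8.13 and 8.12, against 7.05 and 7.15. The difference was 0.99 (adjusted p = 0.00305) in unstimulated and 0.70 (adjusted p = 0.0464) in restimulated cells at day 5. At day 15 it was 0.71 (adjusted p = 0.0559), short of the threshold, in unstimulated cells and 1.05 (adjusted p = 0.00234) in restimulated cells. The unstimulated difference was called with only the 2 groups fitted (adjusted p = 0.00461) and with genes above the median (adjusted p = 0.0389). The restimulated day 5 call was lost with the replicate number as a block (0.70, adjusted p = 0.0617), under cyclic loess (adjusted p = 0.0701), under centring on array medians (adjusted p = 0.0919) and without any single array except 1, adjusted p then reaching 0.234 without Th1 replicate 1. Adjusted for the mean of the myeloid markers the day 5 differences were 0.49 (adjusted p = 0.569) in unstimulated and 0.28 (adjusted p = 0.823) in restimulated cells. Those marker means did not overlap between the types, so this adjustment separates them only poorly from polarization. With both day 5 Th17 arrays of replicate 1 left out, the Id3 differences were 0.68 (adjusted p = 0.0332) and 0.67 (adjusted p = 0.031). Id3 levels in Th1 cells lay close to 7.17, the median level of all genes, and no detection calls are used here.

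Bach2, a repressor that competes with AP-1 factors at shared sites, was higher in Th17 cells at day 5. Unstimulated arrays read 8.74, 9.20 and 9.48 in Th17, against 7.72, 8.35 and 8.07 in Th1. Restimulated arrays read 10.45, 10.02 and 10.38 in Th17, against 9.35, 9.13 and 9.14 in Th1. The groups did not overlap in either state, and the differences were 1.09 (SE 0.22, adjusted p = 0.00358) and 1.07 (adjusted p = 0.00379), each a level about 2.1-fold higher in Th17. At day 15 unstimulated arrays read 9.46, 9.66, 9.61 and 9.51 in Th17, against 8.96 and 9.08 in Th1, and restimulated arrays 10.72, 9.86, 9.87 and 9.68, against 10.15 and 9.49. Those differences, 0.54 (adjusted p = 0.265) and 0.21 (adjusted p = 0.745), did not pass the test, and the restimulated groups overlapped. The unstimulated one was called with only the 2 groups fitted (adjusted p = 0.0247). Adjusted for the mean of the myeloid markers the day 5 unstimulated difference was 1.19 (adjusted p = 0.055).

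Foxo1, a forkhead factor that keeps Il7r and Ccr7 on, differed less. At day 5 it averaged 11.21 ± 0.06 in unstimulated Th17 cells and 10.77 ± 0.02 in Th1 cells (SD, n = 3 each), with a lowest Th17 array at 11.17 and a highest Th1 array at 10.79. This difference of 0.44 (adjusted p = 0.0207) was lost on leaving out any single array except 1 (0.41, adjusted p = 0.104 without Th17 replicate 3), on centring on array medians (adjusted p = 0.0547) and on adjusting for the myeloid markers (0.39, adjusted p = 0.388). The other 3 differences were 0.24 (adjusted p = 0.386) in restimulated cells at day 5, and 0.30 (adjusted p = 0.184) and 0.20 (adjusted p = 0.443) at day 15, unstimulated and restimulated. Bcl6 differences were 0.16 (adjusted p = 0.877) and 0.11 (adjusted p = 0.971) at day 5, and -0.21 (adjusted p = 0.745) and -0.61 (adjusted p = 0.119, 95% interval -1.07 to -0.16) at day 15. That last value was called when either of 2 arrays was left out: without Th1 replicate 2 it was -1.11 (adjusted p = 0.00323), and without Th17 replicate 1 it was -0.79 (adjusted p = 0.0168).

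Prdm1, the Blimp-1 repressor, was called lower in Th17 cells at day 15. Unstimulated arrays read 9.14, 8.63, 8.75 and 9.09 in Th17, against 9.75 and 10.09 in Th1. Restimulated arrays read 9.36, 9.04, 8.92 and 9.03 in Th17, against 10.27 and 9.77 in Th1. No Th17 array reached the lower Th1 array of its state. The differences were -1.02 (SE 0.15, adjusted p = 0.000123), a level 2.03-fold lower in Th17, and -0.94 (adjusted p = 0.000319). Adjusted for the mean of the erythroid markers the restimulated difference was -0.69 (adjusted p = 0.0656). Plasma cell markers (4 of 5), whose cells also use Prdm1, averaged 7.16 to 7.39 in unstimulated Th17 arrays at day 15 and 7.33 to 7.63 in Th1 arrays, and their part was not tested. At day 5 Prdm1 read 9.88, 9.89 and 9.84 in unstimulated Th17 arrays, against 10.12, 10.13 and 10.26 in Th1 arrays. Restimulated arrays of day 5 read 9.66, 9.78 and 9.97 in Th17, against 10.19, 10.09 and 10.29 in Th1. The types did not overlap in either state. The differences of -0.30 (adjusted p = 0.364) and -0.39 (adjusted p = 0.177, restimulated) still missed the threshold. The first was called with only the 2 groups fitted (adjusted p = 0.0409). Id2, the partner of Id3 on the effector side, differed by -0.09 (95% interval -0.29 to 0.11) and -0.12 (-0.32 to 0.08) at day 5, and by -0.22 (-0.43 to -0.0025) and -0.01 (-0.23 to 0.20) at day 15, with adjusted p of 0.834, 0.801, 0.334 and 0.975.

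**Figure D2:**
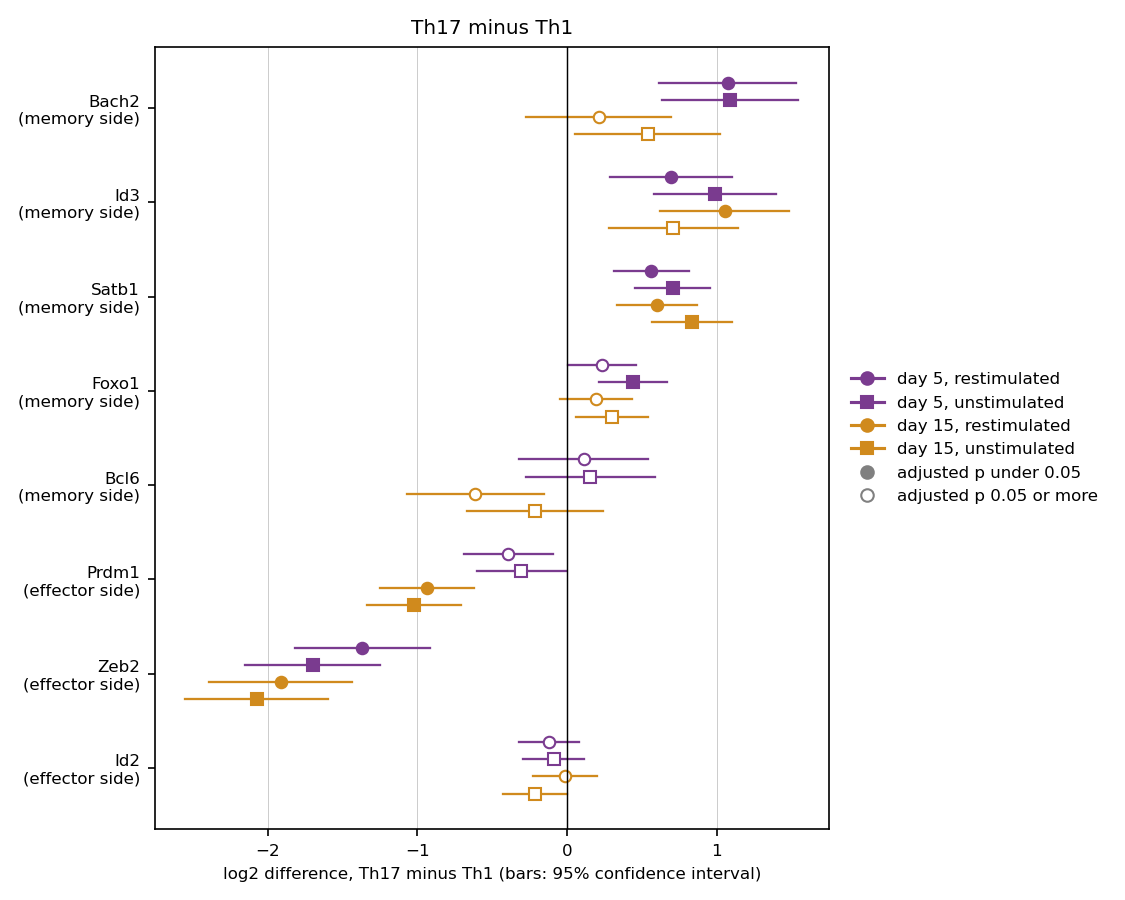
Log2 difference Th17 minus Th1 (x axis) with its 95% confidence interval for each regulator (y axis), in 4 comparisons by day and state, with filled symbols for adjusted p under 0.05. Zeb2 lies between -2.07 and -1.37, Satb1 between 0.56 and 0.83, and Id2 between -0.22 and -0.01.

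The second comparison asked what 2 h of restimulation did to the same genes. Bcl6 rose 2.4-fold to 3.16-fold in both types at both days after transfer, Bach2 rose about 2.2-fold in both types at day 5, and Id2 fell in both types at day 5. Prdm1 passed the test in none of the 4 comparisons. At day 5 in Th17 cells 4 of 8 members were called, where 8.07% of all genes were, with 3 higher (3.99% of all genes) and 1 lower (4.08%). In Th1 cells of that day 5 of 8 were called (13%), with 4 higher (4.07%) and 1 lower (8.96%). At day 15 only Bcl6 was called, 1 of 8 higher and 0 lower in each type, where 17.5% of all genes were called in Th17 (6.49% higher, 11.1% lower) and 7.29% in Th1 (2.65% higher, 4.63% lower), so the members' share was near that of all genes. All differences below are restimulated minus unstimulated.

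Bcl6 read 9.93, 10.03 and 10.26 in restimulated Th17 arrays at day 5, against 8.21, 8.54 and 8.70 in unstimulated arrays. Th1 cells at day 5 read 9.84, 9.92 and 10.12 with restimulation, against 8.21, 8.42 and 8.35 without. At day 15 Th17 cells read 10.07, 9.68, 9.18 and 9.23 with restimulation, against 8.15, 8.24, 8.47 and 8.25 without, and Th1 cells 10.65 and 9.65, against 8.39 and 8.60. Every restimulated array after transfer lay above every unstimulated one. The differences were 1.59 in Th17 (adjusted p = 3.91e-05) and 1.63 in Th1 (adjusted p = 2.2e-05) at day 5, and 1.26 in Th17 (adjusted p = 2.8e-05) and 1.66 in Th1 (adjusted p = 0.000443) at day 15. Fitting only the 2 Th1 groups of day 15, with 2 arrays each, ended that call (adjusted p = 0.118). In the cultures before transfer Bcl6 did not show this pattern: it read 9.33 in restimulated and 9.68 in unstimulated Th17 cells, and 8.95 and 9.02 in Th1 cells, with 1 array each and so no test.

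Bach2 averaged 10.28 ± 0.23 in restimulated and 9.14 ± 0.37 in unstimulated Th17 cells at day 5 (SD, n = 3 each), and 9.21 ± 0.13 and 8.05 ± 0.32 in Th1 cells. These were rises of 1.14 (adjusted p = 0.00235) and 1.16 (adjusted p = 0.00116), and restimulated and unstimulated arrays did not overlap in either type. With both Th17 arrays of replicate 1 left out the Th17 rise was 0.86 (adjusted p = 0.105). At day 15 the differences were 0.47 in Th17 (adjusted p = 0.0934) and 0.80 in Th1 (adjusted p = 0.0766), short of the threshold. Each was called on leaving out 1 array, the first without Th17 restimulated replicate 4 (0.58, adjusted p = 0.0424) and the second without Th1 restimulated replicate 2 (1.13, adjusted p = 0.0184). The Th1 difference was also called with genes above the median (adjusted p = 0.0482).

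Foxo1 rose by 0.43 in Th1 cells at day 5 (adjusted p = 0.0105), to 11.20 ± 0.08 in restimulated cells against 10.77 ± 0.02 in unstimulated cells. Satb1 was called there with a difference of 0.40 (adjusted p = 0.0313), a call lost without any 1 of the 6 arrays (0.37 to 0.43, adjusted p from 0.0514 to 0.115). In Th17 cells at day 5 the same genes differed by 0.22 (adjusted p = 0.238) and 0.25 (adjusted p = 0.224). Id3 differed by -0.46 in Th17 and -0.16 in Th1 cells at day 5, and by 0.17 and -0.17 at day 15, none called. Its Th17 day 5 difference was called without unstimulated replicate 2 (-0.73, adjusted p = 0.0178).

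On the effector side, Id2 read 12.13, 12.46 and 12.36 in restimulated Th17 arrays at day 5, against 12.67, 12.94 and 12.91 in unstimulated arrays. In Th1 cells it read 12.34, 12.56 and 12.41 with restimulation, against 12.83, 12.93 and 13.04 without. It fell by 0.53 (adjusted p = 0.00159) and 0.50 (adjusted p = 0.00154), with no overlap. At day 15 Id2 read 12.76, 12.88, 12.84 and 12.93 in restimulated Th17 arrays, against 13.07, 12.97, 12.89 and 13.06, and 12.89 and 12.85 in restimulated Th1 arrays, against 13.21 and 13.22. Those differences, -0.14 (adjusted p = 0.257) and -0.34 (adjusted p = 0.083), missed the threshold, the second being called with genes above the median (adjusted p = 0.0406). Zeb2 was called in Th17 cells at day 5 with a difference of 0.72 (adjusted p = 0.0419), but its groups overlapped. The call was lost without any single array except 1, and without unstimulated replicate 1 the value was 0.40 (adjusted p = 0.32). It was also lost with only the 2 groups fitted (adjusted p = 0.107) and with centring on array medians (adjusted p = 0.0593). In Th1 cells of that day Zeb2 differed by 0.39 (adjusted p = 0.29). Prdm1 differed by -0.07 and 0.02 at day 5 and by 0.19 and 0.10 at day 15 (Th17, then Th1), with adjusted p from 0.31 to 0.968.

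**Figure D3:**
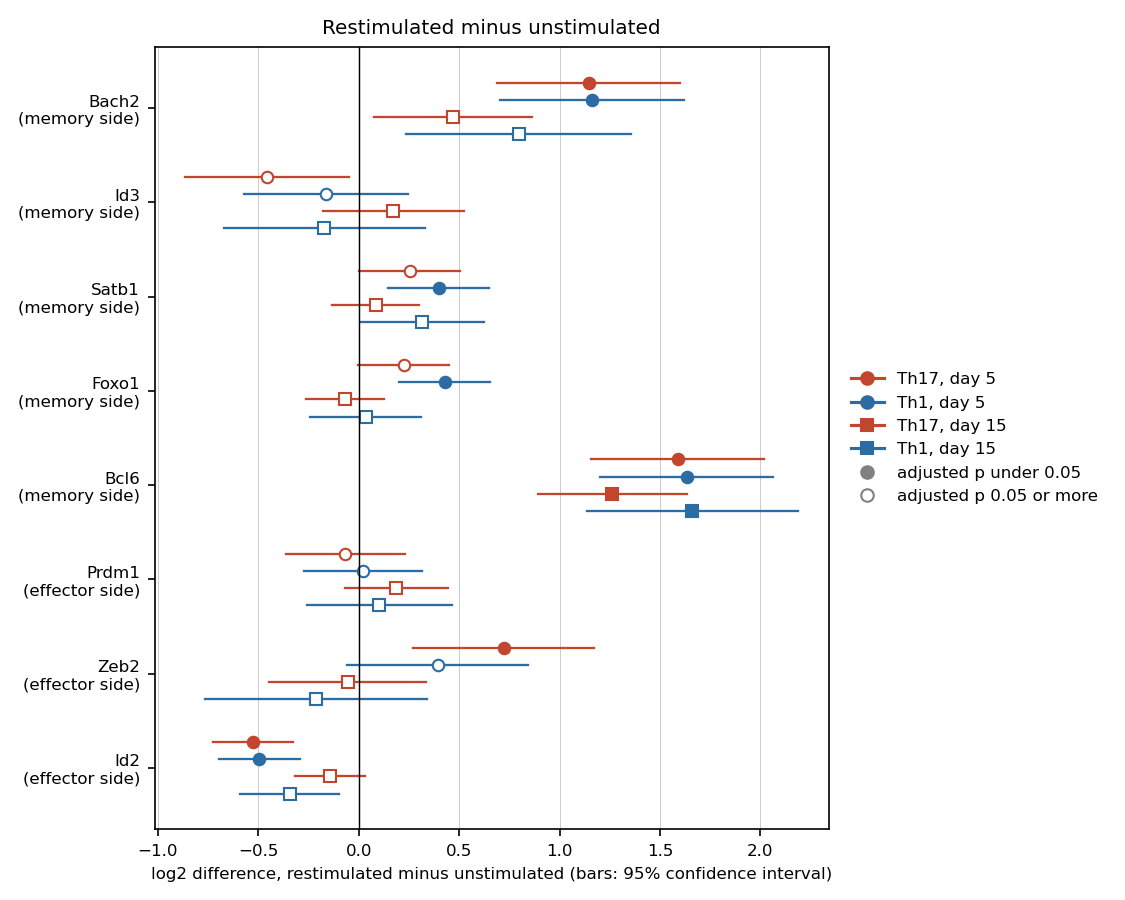
Log2 difference restimulated minus unstimulated (x axis) with its 95% confidence interval for each regulator (y axis), by type and day, with filled symbols for adjusted p under 0.05. Bcl6 stands alone at 1.26 to 1.66 in all 4 comparisons, Bach2 reaches 1.14 and 1.16 at day 5, and Prdm1 stays between -0.07 and 0.19.

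The third comparison set day 15 against day 5. In unstimulated cells Zeb2 rose in both types while Prdm1 fell in Th17 cells, and Bach2 rose in Th1 cells. In restimulated cells Id2 was higher at day 15 in both types, and Prdm1 again fell in Th17 cells. In unstimulated Th17 cells 2 of 8 members were called, where 9.64% of all genes were, with 1 higher (4.37% of all genes) and 1 lower (5.28%). In unstimulated Th1 cells 2 of 8 were called (16.1%), with 2 higher (7.33%) and 0 lower (8.72%). In restimulated Th17 cells 2 of 8 were called (13.5%), with 1 higher (5.05%) and 1 lower (8.42%). In restimulated Th1 cells 1 of 8 was called (15.7%), with 1 higher (7.07%) and 0 lower (8.64%), a share near that of all genes.

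Zeb2 averaged 10.19 ± 0.08 at day 15 (n = 2) and 8.97 ± 0.13 at day 5 (SD, n = 3) in unstimulated Th1 cells, a rise of 1.23 or 2.34-fold (adjusted p = 0.000855). In unstimulated Th17 cells it averaged 8.12 ± 0.24 at day 15 (n = 4) and 7.27 ± 0.62 at day 5 (SD, n = 3), a rise of 0.86 (adjusted p = 0.0084). That rise was 0.53 (adjusted p = 0.1) without Th17 day 5 replicate 1, and it was not called with only the 2 groups fitted (adjusted p = 0.0701). NK cell markers moved with the rise in Th1 cells, averaging 7.64 to 8.13 at day 15 and 6.77 to 7.06 at day 5, whereas in Th17 cells they averaged 6.51 to 6.71 and 6.61 to 7.35. Their part in the rise was not tested. Restimulated differences were 0.08 in Th17 (adjusted p = 0.862) and 0.62 in Th1 (adjusted p = 0.0921), and the Th1 value was 0.80 (adjusted p = 0.048) without day 5 replicate 3.

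Prdm1 fell by 0.97 in unstimulated Th17 cells (adjusted p = 3.09e-05), to 8.90 ± 0.25 at day 15 against 9.87 ± 0.03 at day 5, and by 0.71 in restimulated Th17 cells (adjusted p = 0.000938). Both Th17 groups of day 15 lay below every other group after transfer without overlap. In Th1 cells it differed by -0.25 (adjusted p = 0.359) and -0.17 (adjusted p = 0.605), unstimulated and restimulated. Bach2 rose by 0.98 in unstimulated Th1 cells (adjusted p = 0.00695), whose day 5 arrays were the lowest of all 8 groups, and without day 15 replicate 2 this was 0.91 (adjusted p = 0.0854). Its other differences were 0.42 in unstimulated Th17 (adjusted p = 0.2), -0.25 in restimulated Th17 (adjusted p = 0.495) and 0.61 in restimulated Th1 cells (adjusted p = 0.105). The last was 0.94 (adjusted p = 0.0406) without day 15 replicate 2. Id2 rose by 0.54 in restimulated Th17 (adjusted p = 0.000365) and by 0.43 in restimulated Th1 cells (adjusted p = 0.00713), a call lost with only the 2 Th1 groups fitted (adjusted p = 0.0608). In unstimulated cells it differed by 0.15 in Th17 (adjusted p = 0.296) and 0.28 in Th1 (adjusted p = 0.0864). Under cyclic loess both were called, at 0.25 (adjusted p = 0.0385) and 0.36 (adjusted p = 0.00758), and the Th1 difference was also called with only the 2 groups fitted (adjusted p = 0.0424) and with genes above the median (adjusted p = 0.0439). Id3, Satb1, Foxo1 and Bcl6 passed the test in none of the 4 comparisons, with values from -0.53 (Bcl6, restimulated Th17, adjusted p = 0.0754) to 0.35 (Id3, restimulated Th17, adjusted p = 0.247). That Bcl6 value was -0.71 (adjusted p = 0.0112) without day 15 replicate 1.

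**Figure D4:**
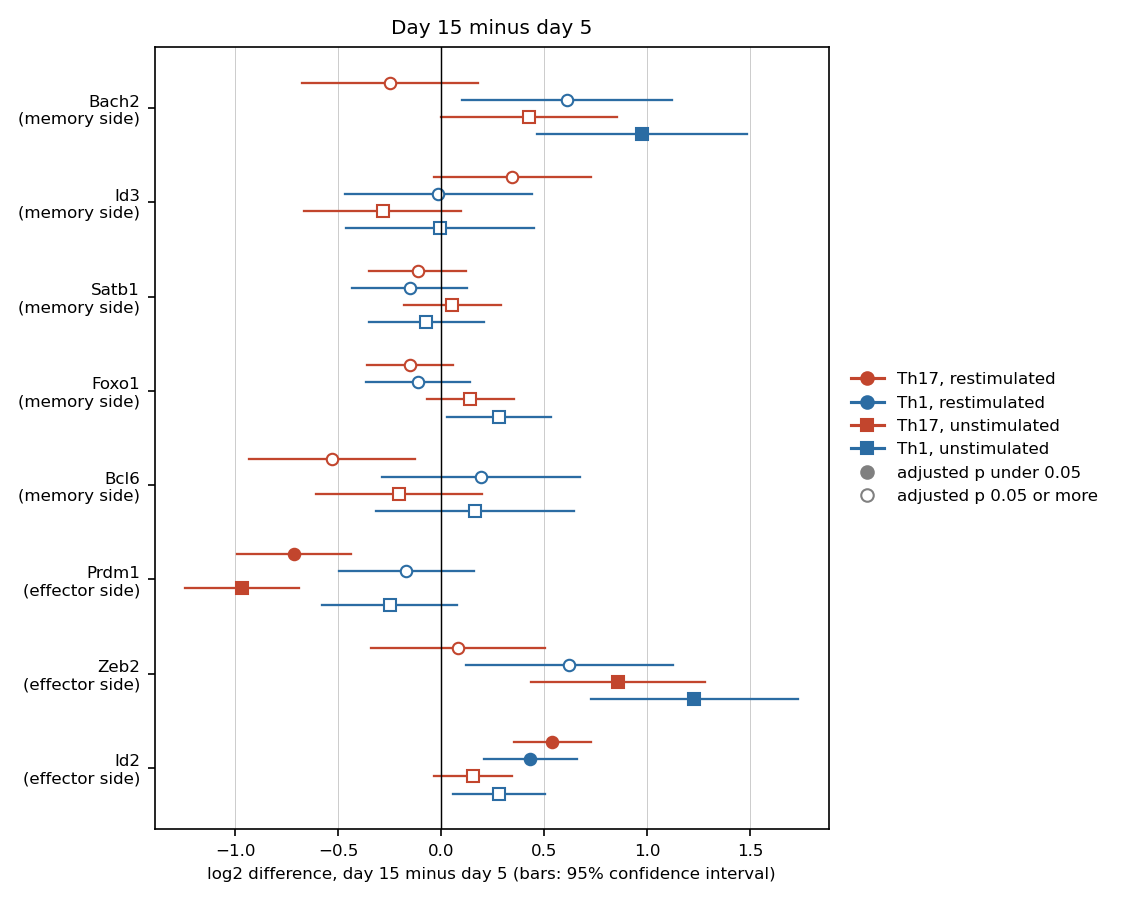
Log2 difference day 15 minus day 5 (x axis) with its 95% confidence interval for each regulator (y axis), by type and state, with filled symbols for adjusted p under 0.05. Prdm1 lies at -0.97 and -0.71 in Th17 and at -0.25 and -0.17 in Th1, and Zeb2 at 0.86 and 1.23 in unstimulated Th17 and Th1.

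Whether these differences themselves differed was tested by 6 interaction terms in limma. No member was called in any of them. At the adjusted threshold 1.14% and 0.943% of all genes were called for polarization by day in unstimulated and restimulated cells, 0.0201% and 0% for polarization by restimulation at day 5 and day 15, and 1.17% and 0.0251% for day by restimulation in Th17 and Th1 cells. At an unadjusted p under 0.05 the term for polarization by day held 1 of 8 members in unstimulated cells, against 12.6% of all genes, and 3 of 8 in restimulated cells, against 10.7%. The term for polarization by restimulation held 0 of 8 at both days, against 2.46% and 6.1% of all genes. That for day by restimulation held 4 of 8 in Th17 cells, against 15.8%, and 1 of 8 in Th1 cells, against 4.23%. The smallest adjusted p was that of Prdm1, whose Th17 minus Th1 difference in unstimulated cells was lower at day 15 than at day 5 (-0.72, 95% interval -1.15 to -0.29, adjusted p = 0.0989). In restimulated cells the change of the polarization difference from day 5 to day 15 was -0.86 for Bach2 (adjusted p = 0.265), -0.72 for Bcl6 (adjusted p = 0.356) and -0.54 for Prdm1 (adjusted p = 0.282). The Bach2 term was called without Th17 day 15 replicate 1 (-1.09, adjusted p = 0.0318) and the Bcl6 term without Th1 day 15 replicate 2 (-1.22, adjusted p = 0.028). In Th17 cells the restimulation response at day 15 minus that at day 5 was -0.78 for Zeb2 (adjusted p = 0.204), -0.68 for Bach2 (adjusted p = 0.268), 0.39 for Id2 (adjusted p = 0.155) and 0.63 for Id3 (adjusted p = 0.251). A Bach2, Prdm1 or Zeb2 difference called at 1 day or in 1 type is therefore not shown to be larger there.

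Before transfer there was 1 array per group and no spread is known. In unstimulated cultures Id3 read 8.34 in Th17 and 6.61 in Th1, Bach2 10.66 and 10.03, Prdm1 8.86 and 9.83, and Zeb2 8.44 in both. With restimulation Zeb2 read 9.76 in Th17 and 10.65 in Th1, and Bach2 11.41 and 10.11. Satb1 read 12.64 in Th17 and 12.48 in Th1 without restimulation and 12.41 and 12.45 with it, and the highest array after transfer read 12.42. Foxo1 was lower in the Th17 culture in both states, at 11.34 against 11.72 unstimulated and 11.18 against 11.34 restimulated. The Th17 culture also had the highest myeloid marker means, 9.35 restimulated and 9.64 unstimulated, against 6.40 and 6.62 in Th1.

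The sides were put together by centring each gene on its mean over the 24 arrays after transfer and averaging within a side, as a description with no test. In unstimulated cells memory minus effector was 0.53, -0.01 and 0.43 on the Th17 arrays of day 5, against -1.08, -0.95 and -1.13 on the Th1 arrays. At day 15 it was 0.10, 0.49, 0.52 and 0.22 in Th17, against -1.20 and -1.21 in Th1. Within each day and state all Th17 arrays lay above all Th1 arrays, with group differences of 1.37 at day 5 and 1.54 at day 15. With Zeb2 left out they were 0.87 and 1.05. After restimulation it was 0.98, 0.60 and 0.90 in Th17, against -0.31, -0.25 and -0.44 in Th1 at day 5, and 0.78, 0.87, 0.66 and 0.57, against -0.38 and -0.68, at day 15. The differences of 1.16 and 1.24 were 0.79 and 0.77 without Zeb2. Restimulated minus unstimulated was 0.51 in Th17 and 0.72 in Th1 cells at day 5, and 0.39 and 0.68 at day 15. The Th17 value of day 15 was 0.17 without Bcl6. The memory-side mean was 0.52 ± 0.14 in restimulated and -0.04 ± 0.13 in unstimulated Th17 cells at day 5 (SD, n = 3 each). The effector mean was -0.31 ± 0.14 and -0.35 ± 0.25 in the same groups. Over the 24 arrays, pairs of members differed in how closely they followed each other. Pearson's r was -0.87 for Id3 and Zeb2, 0.84 for Satb1 and Foxo1, 0.84 for Bach2 and Foxo1, and 0.26 for Bcl6 and Prdm1. These describe arrays that share group, day and restimulation.

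**Figure D5:**
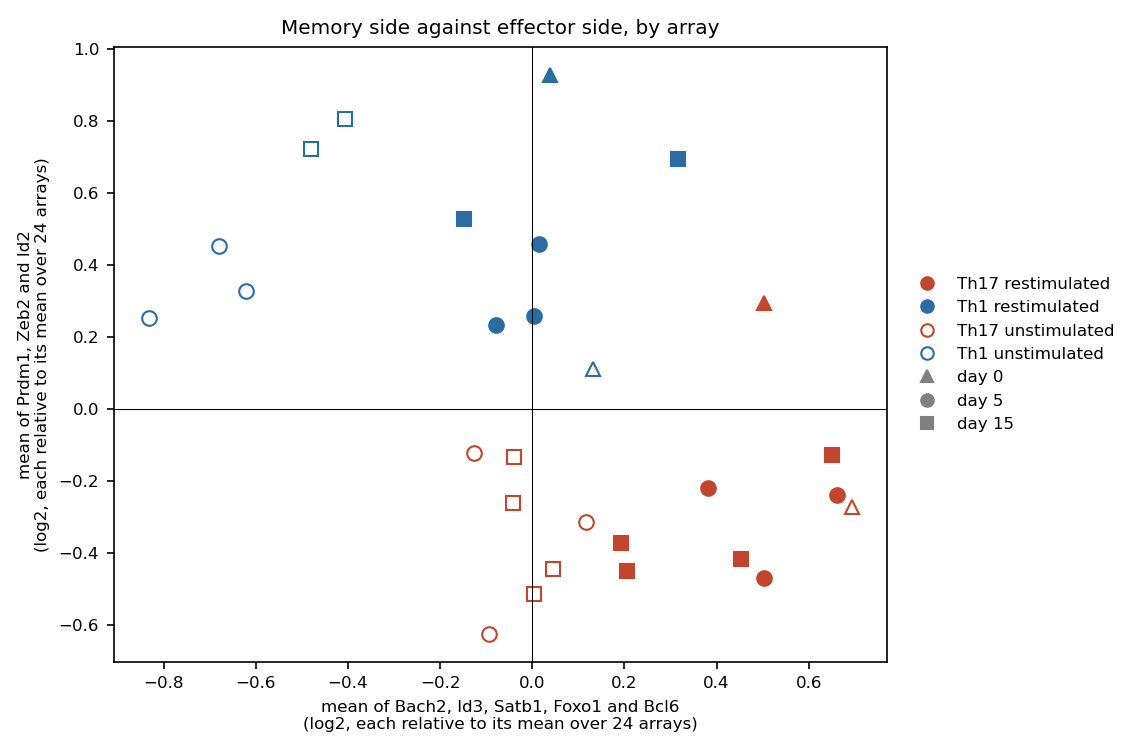
Mean of the 5 memory-side genes (x axis) against that of the 3 effector-side genes (y axis) on each of 28 arrays, in log2 units relative to each gene's mean over the 24 arrays after transfer. All Th17 arrays after transfer (red) have an effector mean under 0 and all Th1 arrays (blue) one above 0, while restimulated arrays after transfer (filled) lie further right than unstimulated arrays (open) of the same type and day. At day 0 they lie further left.

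Genes linked to the regulators were counted in lists. Of 8 terminal effector genes, several of which depend on Zeb2 and T-bet in CD8+ T cells, 0 were called higher and 7 lower in unstimulated Th17 cells at day 15, with a median of -2.06. In restimulated cells 0 were called higher and 6 lower (median -1.61). The killer receptor Klrg1 differed there by -2.55 (adjusted p = 3.09e-09) and -2.27 (adjusted p = 9.73e-09), and granzyme Gzma differed by -2.38 and -2.17. At day 5 the list had 1 higher and 5 lower in unstimulated cells (median -1.03), where 2.31% and 1.32% of all genes were. In restimulated cells it had 1 higher and 3 lower (median -0.52), where 2.95% and 1.02% of all genes were. The higher one was Klrc1, an inhibitory killer receptor gene, at 0.89 and 0.99, named after its values were seen. From day 5 to day 15 the list had 4 called higher and 3 lower in unstimulated Th17 cells, where 4.37% and 5.28% of all genes were. In unstimulated Th1 cells it had 5 higher and 0 lower, where 7.33% and 8.72% of all genes were. In Th17 cells Klrk1 differed by 1.59 while Gzmb differed by -1.74. In unstimulated cells the Th17 minus Th1 difference itself changed from day 5 to day 15 for 4 genes of the list, all lower at day 15, led by Klrc1 at -1.67 and Gzmb at -1.46. Of all genes 1.14% were called for this term. NK cells also express most of this list.

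Of 4 measured Foxo1 and Klf2 targets, 2 were called higher and 0 lower in unstimulated and 3 higher and 0 lower in restimulated Th17 cells at day 5 (medians 0.71 and 0.95), and 1 higher and 0 lower in each state at day 15 (0.23 and 0.47). In these comparisons 2.31%, 2.95%, 1.88% and 3.45% of all genes were called higher, and 1.32%, 1.02%, 2.28% and 2.98% lower. These shares apply to each list compared between types. Ccr7, the lymph node homing receptor, was higher in all 4 comparisons, by 1.88 and 2.19 at day 5 and by 1.93 and 1.57 at day 15. Il7r, the IL-7 receptor, was higher by 1.29 and 1.42 at day 5. On restimulation Klf2, a quiescence factor, differed by -0.63 in Th17 and -1.01 in Th1 cells at day 5. Other memory and quiescence regulators (8 of 9 measured) had 1 higher and 0 lower in unstimulated Th17 cells at day 5 and 2 higher and 0 lower in restimulated cells, among them Lef1 at 0.44 and 0.53. At day 15 they had 0 higher and 1 lower, Klf3 at -0.61, and in restimulated cells 2 higher and 1 lower, Foxp1 at -0.62. Other effector regulators (9 of 9) had 0 called higher in all 4 comparisons and 0, 1, 3 and 1 lower (day 5 unstimulated and restimulated, then day 15). Tbx21, which encodes T-bet, was among them at -0.71 in restimulated cells at day 5 and -0.77 in unstimulated cells at day 15.

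Partners and corepressors of Bach2 and Bcl6 (5 of 7 measured) were higher with restimulation in all 5 measured cases in both types at day 5, and 3 of 5 were called higher in each type at day 15. None was called lower, and the medians were 0.74 and 0.44 in Th17 and 0.83 and 0.58 in Th1 (day 5, then day 15). Of all genes, 3.99% and 6.49% were called higher in Th17 and 4.07% and 2.65% in Th1, in the same order. The shares called lower were 4.08% and 11.1% in Th17 and 8.96% and 4.63% in Th1. Maff, a small Maf protein that pairs with Bach factors, differed by 1.47 and 2.35 in Th17 and by 1.58 and 2.10 in Th1, and Bcor, a corepressor of Bcl6, by 0.84 in Th17 and 0.95 in Th1 at day 5. For all genes the medians in these comparisons lay between -0.08 and 0.03.

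Genes whose levels followed each member most closely over the 24 arrays were ranked by Pearson's r among genes above the median level. Bcl6 was closest to Rel, Nr4a3 and Egr2, all early T cell receptor response genes (0.983, 0.982 and 0.979). Prdm1 was closest to Plek, Plac8 and Lag3 (0.942, 0.935 and 0.923), and Zeb2 to Pik3ap1, Cacng8 and Klrg1 (0.919, 0.904 and 0.901). Bach2 was closest to Ric1, Neurl3 and Ldlrad4 (0.926, 0.909 and 0.907), Id3 to Acpp, Il17re and Itga7 (0.898, 0.897 and 0.896), and Satb1 to Phldb1, Zc3h12c and Ifngr2 (0.885, 0.881 and 0.877). Foxo1 was closest to 2 fellow members, Satb1 and Bach2 (0.839 and 0.838), and Id2 to Slfn8, Sema4a and Ifi213 (0.933, 0.918 and 0.913). The arrays share group, day and restimulation, so these values describe the set of arrays.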

How the data were processed

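The deposited value of a probe set is its log2 signal after RMA in Affymetrix Expression Console, per the submitters' processing notes (version not given in the sources used here). Because RMA forces all arrays onto a shared distribution, a global shift in RNA content is not visible. Of 35556 probe sets, 21789 carried 1 symbol and were used. Where a gene had several, the highest mean was taken, leaving 19938 genes.

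In limma 3.58.1 under R 4.3.3, a linear model of 8 group means was fitted to the 24 arrays after transfer and moderated by eBayes (residual degrees of freedom: 16). It gave 12 pairwise comparisons and 6 interactions. p-values were adjusted by Benjamini-Hochberg over all genes and called under 0.05. Intervals are 95%. The 4 day 0 arrays are given as values only. Precision is set by how few arrays there are. The procedure was tested on simulated data.

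The members and lists were chosen with earlier results of these data known. All 8 members are named in every comparison, with up to 3 called genes of the largest change per list and the 3 genes most correlated with each member. Of 106 list and marker entries 95 were matched. Same-numbered arrays deviated together from their group means (r 0.158 to 0.483) at day 5 in the restimulation comparisons and between restimulated types, and a fit with the replicate number as a block is given where it changed a call. Other alternatives were only the groups compared, genes above the median, cyclic loess, median centring, marker covariates and leaving out each array. The covariates were used between types, myeloid markers at day 5 only and erythroid markers at day 15 only. The myeloid means at day 5, and the erythroid means of restimulated cells at day 15, did not overlap between types. A call lost with such a covariate therefore does not tell its part from that of polarization. One alternative, without both Th17 day 5 arrays of replicate 1, was chosen after seeing the data.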

Additional observations from a re-analysis of the deposited data

Results flagged for a closer look

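Groups of 4 arrays were checked for a member with 1 array far from the other 3 (Dixon's test at 95%). Of 16 such values in the Th17 day 15 groups, 2 were picked out, both in the restimulated group and both its replicate 1: Satb1 at 12.271 and Zeb2 at 8.528 were the highest of their group. Chance picks out about 1 in 20 groups. The same array had the highest Bach2, Foxo1, Bcl6 and Prdm1 of its group, at 10.72, 11.60, 10.07 and 9.36, and its lowest Id3 and Id2, at 7.80 and 12.76.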

How the results depend on the processing

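Members called are counted throughout. With only the groups compared in the fit, which leaves fewer arrays for the spread, 5 were called in Th17 against Th1 at day 15 without restimulation, 0 for restimulation in Th1 at day 15, 4 and 1 for day 15 against day 5 in unstimulated Th1 and Th17 cells, and 0 in restimulated Th1 cells. With genes above the median only, restimulation in Th1 at day 15 had 3. The myeloid covariate left 2 in Th17 against Th1 at day 5 without restimulation, and leaving out both Th17 day 5 arrays of replicate 1 gave 2 for restimulation in Th17 at day 5 and 1 for day 15 against day 5 in unstimulated Th17 cells. Leaving out 1 array gave 1 to 2 for day 15 against day 5 in unstimulated Th17 and Th1 and restimulated Th1 cells, 1 to 3 and 1 to 2 for restimulation in Th1 and Th17 at day 15, 2 to 4 in Th17 against Th1 at day 5 with restimulation, and 0 to 1 for polarization by day in restimulated cells. Directions turned only for small values: Id2, Th17 against Th1, was 0.0088 under cyclic loess and 0.1231 with the erythroid covariate at day 15 with restimulation, and 0.0474 with the myeloid covariate at day 5 without. Prdm1 on restimulation in Th17 at day 5 was 0.0088 without both replicate 1 arrays. Leaving out 1 array, Prdm1 on restimulation ranged from -0.1494 to 0.004 in Th17 and from -0.0293 to 0.0702 in Th1 at day 5, and from -0.1469 to 0.352 in Th1 at day 15. Its day difference in restimulated Th1 cells ranged from -0.419 to 0.0799, and that of Zeb2 in restimulated Th17 cells from -0.0742 to 0.1563. Th17 against Th1 at day 15 with restimulation ranged from -0.1195 to 0.5453 for Bach2 and from -0.0378 to 0.0169 for Id2. The cause was not tested for any of these. Leaving 1 member out of the side means moved 25 of 96 side differences by more than 1 SD. Day 15 minus day 5 in unstimulated Th17 and Th1 cells was 0.01 and -0.15, and without Zeb2 0.43 and 0.25. With the replicate number as a block, Id3 in restimulated cells at day 5 lost its call (0.70, adjusted p = 0.0617). Where numbers were not shared by the deviations, Bach2 in unstimulated (0.54, adjusted p = 0.034) and Foxo1 in restimulated cells at day 15 (0.37, adjusted p = 0.0341) gained one, Th17 against Th1, and no other call changed. Day 15 rests on 2 Th1 arrays per state, and no detection calls bound low signals.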

Other observations

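Genes of follicular helper cells, which depend on Bcl6, were counted as well. Of 8 such genes 0 were called higher and 5 lower at day 15 against day 5 in unstimulated Th17 cells (median -0.64), and 0 higher and 6 lower in restimulated Th17 cells (median -0.80). There 4.37% and 5.28% of all genes were called higher and lower without restimulation, and 5.05% and 8.42% with it. Cd200, a surface ligand, differed by -0.94 and -1.64, and the cytokine gene Il21 by -1.75 and -2.58. In Th1 cells the list had 0 higher and 1 lower without restimulation, and 1 higher and 2 lower with it. The shares of all genes were 7.33% and 8.72% without restimulation, near that of the list, and 7.07% and 8.64% with it. Bcl6 itself was called in none of these 4 comparisons. Between types at day 15, Pdcd1, an inhibitory receptor, differed by -1.07 in unstimulated and -1.80 in restimulated cells, while Tox2 differed by 1.46 and 1.24 at day 5, all Th17 minus Th1.

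The E protein and other Id genes (5 of 5 measured) had 1 called higher and 0 lower in Th17 against Th1 at day 5 in each state, Tcf4, an E protein, at 0.67 and 0.51, and none called at day 15. Of all genes 2.31% and 2.95% were called higher at day 5, and 4.15% and 6.43% either way at day 15. Of 7 IL-2 receptor and Stat5 genes, 1 was called higher in each state at day 5, Il2ra at 0.82 in unstimulated and Socs1 at 0.85 in restimulated cells. At day 15 1 and 2 were called lower (2.28% and 2.98% of all genes), Il2rb at -0.44 and -0.31 among them. On restimulation 2 rose in Th17 and 3 in Th1 cells at day 5 (3.99% and 4.07% of all genes), Stat5a by 0.85 and 0.86.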
